A study of Mus musculus with 8 samples.

Results

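Carbonic anhydrase genes were examined in pancreatic islet RNA of wild-type and hIAPP transgenic mice, with or without 4-phenylbutyrate (PBA). The 10 genes are Car2, Car3, Car4, Car8, Car10, Car11, Car12, Car13, Car14 and Car15, of 17097 genes measured. They were taken by family name from the deposited log2 values, and the family was picked because Car15 was lower with the transgene and higher with PBA in hIAPP islets. Those values of Car15 are therefore given as a description, without a test, and its values in the other comparisons share arrays with them.

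Each of the 4 groups had 2 arrays of islets from 20-week-old mice. Untreated wild-type mice, untreated hIAPP transgenic mice and PBA-treated mice of both genotypes carry the strain label FVB/N-Tg(Ins2-IAPP)RFHSoel/J, in which an Ins2 insulin promoter drives the human islet amyloid polypeptide gene in beta cells. The label gives the wild-type arrays the transgenic strain's name too, against their genotype label, and the groups here follow the genotype label. PBA, a chemical chaperone, was dissolved in water and given at 1 g/kg/day for 12 weeks from the age of 8 weeks. Whether a group's 2 arrays came from different mice or from pooled islets is not stated, and p-values therefore cover only the spread between these arrays, which may be technical. The transgene's own transcript was not analysed here.

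Carbonic anhydrases convert carbon dioxide and water into bicarbonate and a proton, and back. The mammalian forms differ in where they work. Car2, Car3 and Car13 code for cytosolic enzymes, Car4 and Car15 for enzymes held on the outer cell surface by a lipid anchor, and Car12 and Car14 for enzymes that span the membrane with the active site outside. Car8, Car10 and Car11 code for related proteins that lack the zinc-binding site and do not catalyse the reaction. In the pancreas the family is known mainly for bicarbonate secretion by duct cells, for which Car2 is a classical enzyme. Car15 is active in the mouse, whereas its human counterpart is a pseudogene.

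Among the 10 genes, Car15, Car10, Car4 and Car2 had a mean over the 8 arrays above 4.68, the 95th percentile of the 23 non-specific control probe sets, as did 59.2% of all genes. The other 6 did not. On chromosome 3 of GRCm38.p6 lie Car13 (14641727-14663002), Car3 (14863538-14872381) and Car2 (14886269-14900770) in this order, with Car1, which is not among the 10, between Car13 and Car3. Car15 lies on chromosome 16 (17835276-17838186), Car4 and Car10 on chromosome 11 (84957754-84966054 and 93096805-93601751). The array has 19 probe sets for the 10 genes, and the probe set with the highest mean stood for the gene. Levels of different genes come from different probes and are not set against each other.

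The genomic windows from 250 bases before to 50 bases after the annotated start are shown for the members above background that the RefSeq table lists (GRCm38.p6), since these are the promoters whose output the arrays could follow. Capitals mark the TATA box letters TATAAA, the CCAAT box letters CCAAT and the core letters ACGTG of the hypoxia response element, each searched on both strands. None of these motifs contains another. The lines give Car15 (chr16:17838137-17838436, minus strand), Car4 (chr11:84957504-84957803, plus strand) and the second listed start of Car10 (chr11:93099040-93099339, plus strand).
Car15: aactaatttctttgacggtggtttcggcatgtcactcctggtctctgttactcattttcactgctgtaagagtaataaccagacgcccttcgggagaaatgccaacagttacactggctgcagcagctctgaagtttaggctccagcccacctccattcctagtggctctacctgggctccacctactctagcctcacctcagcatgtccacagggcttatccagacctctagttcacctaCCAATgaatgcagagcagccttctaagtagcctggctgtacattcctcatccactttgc
Car4: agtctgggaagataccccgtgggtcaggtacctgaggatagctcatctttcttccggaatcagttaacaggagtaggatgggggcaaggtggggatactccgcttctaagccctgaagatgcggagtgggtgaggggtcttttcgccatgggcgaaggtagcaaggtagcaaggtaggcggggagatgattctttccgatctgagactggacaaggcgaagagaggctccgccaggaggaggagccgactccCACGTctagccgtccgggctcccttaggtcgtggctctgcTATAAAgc
Car10: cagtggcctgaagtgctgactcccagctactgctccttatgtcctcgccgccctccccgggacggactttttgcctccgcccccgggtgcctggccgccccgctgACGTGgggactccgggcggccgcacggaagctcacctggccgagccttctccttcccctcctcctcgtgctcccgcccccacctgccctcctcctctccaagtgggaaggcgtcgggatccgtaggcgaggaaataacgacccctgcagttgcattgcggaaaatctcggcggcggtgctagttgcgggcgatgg

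The Car15 window held 4 CpG dinucleotides, fewer than the median of 7 over 32851 windows of the same length, and 31.4% of windows had fewer. It held 1 CCAAT, directly before the annotated start, and none of the other motifs. The Car4 window held 15 CpG, 1 TATAAA and 1 ACGTG on the opposite strand, and both of these matches lie after the annotated start. The Car10 window held 27 CpG and 1 ACGTG, and the window of its other start held 22 CpG and none of the motifs. Of all windows, 13.6% held TATAAA, 37.4% held CCAAT and 19.6% held ACGTG, so each match is common, and a match describes letters, not a bound site. Windows of 6 of the 10 genes were listed.

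Markers of beta cells were above background in 14 of 14 measured genes, and markers of other islet endocrine cells in 6 of 6. Acinar markers, from the digestive enzyme tissue around the islets, were also high, and their median ranged from 9.2 on PBA-treated hIAPP 1 to 12.5 on untreated hIAPP 2. PBA-treated wild type 1 stood apart in the spiked-in hybridisation controls, with a median of 6.95 against 9.8 to 10.2 on the other arrays. The median over all genes was 5.9 on the untreated hIAPP arrays and 5.7 on the others, so centring the arrays would shift every transgene change without PBA by -0.20 and every PBA change in hIAPP islets by 0.20.

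Car15 had a different mean in each of the 4 groups. Its log2 values were 9.0 and 9.1 in untreated wild-type islets, 8.2 and 7.9 in PBA-treated wild-type islets, 7.1 and 7.4 in untreated hIAPP islets, and 8.6 and 8.6 in PBA-treated hIAPP islets. No pair of groups overlapped, which follows in part from the choice of Car15 and also held for 1.81% of all genes (310 of 17097). The order from high to low was untreated wild type (9.05 ± 0.07, SD, n = 2), PBA-treated hIAPP (8.6 ± 0.0), PBA-treated wild type (8.05 ± 0.21) and untreated hIAPP (7.25 ± 0.21). Each step between neighbours in this order was larger than the SD of either group.

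**Figure D1:**
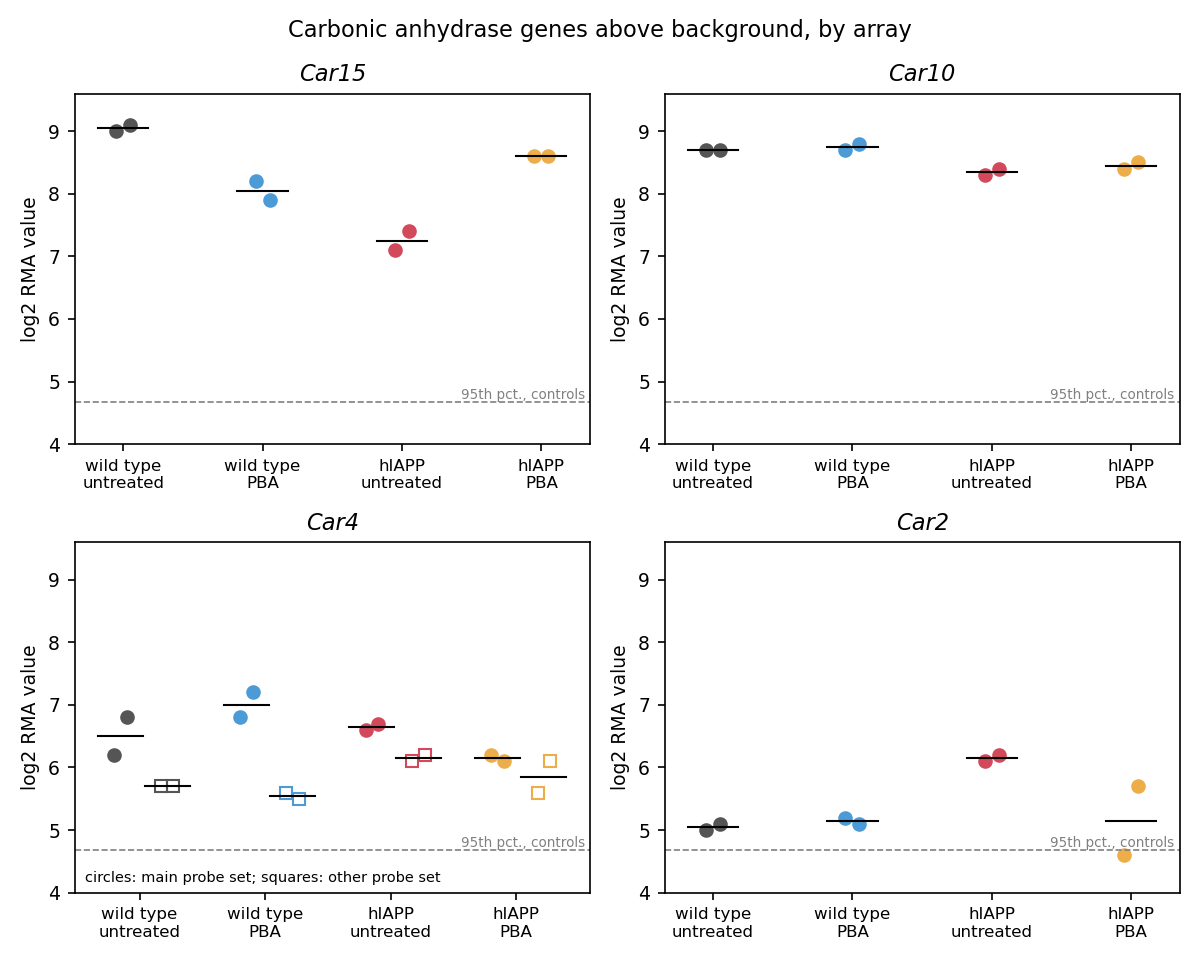
Log2 RMA values (vertical axis) of Car15, Car10, Car4 and Car2 in the 4 groups (horizontal axis), with 1 point per array and a black bar at the group mean; the dashed line is the background level of 4.68, and open squares are the second probe set of Car4. The Car15 values of the 4 groups do not overlap. Car10 is 8.3 to 8.5 on the hIAPP arrays and 8.7 to 8.8 on the wild-type arrays. The 2 PBA-treated hIAPP arrays differ for Car2 (4.6 and 5.7).

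In the contrasts that led to the choice of the family, Car15 was 1.80 lower on the log2 scale in untreated islets of hIAPP mice than of wild-type mice (-1.80, SE 0.14), a 3.48-fold lower signal. With PBA it was 1.35 higher in hIAPP islets (SE 0.14), a 2.55-fold higher signal. The treated hIAPP arrays stayed 0.45 below the untreated wild-type arrays (-0.45). In whole-islet RNA, fewer cells of a type and less RNA per cell cannot be told apart.

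PBA also went with a lower Car15 signal in wild-type mice, where the direction was opposite to that in hIAPP mice. The change was -1.0 (SE 0.14, 95% interval -1.34 to -0.66), a 2.0-fold lower signal, with both treated arrays below both untreated arrays. It did not pass in limma's fit of all genes (adjusted p = 0.0561), in which 50 of 17097 genes did (0.292%). The untreated wild-type arrays also served to choose Car15, so neither this test nor its alternatives are independent of that choice. The change passed when genes below background were left out (adjusted p = 0.0379) and with a prior variance that follows the level (0.0085). It also passed when all probe sets of a gene were averaged (0.0409). Car15 has 1 probe set, so averaging altered only the values of other genes. In all, the change passed in 3 of 17 alternatives. Without PBA-treated wild type 1, the array with low hybridisation controls, the change was -1.15.

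Under PBA the Car15 mean was higher in hIAPP than in wild-type islets, by a difference that did not pass. The hIAPP arrays were 0.55 above the wild-type arrays (SE 0.14, 95% interval 0.21 to 0.89), without overlap. Limma's test did not pass (adjusted p = 0.2168), nor did it in any of 17 alternatives. The PBA-treated hIAPP arrays also served to choose Car15, so this test is not independent of that choice. The PBA change in hIAPP minus that in wild-type islets was 2.35 (SE 0.20). Since it contains a contrast used to choose Car15, it is given as a description, without a p-value.

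Some marker lists moved the same way as Car15 and others the opposite way in part of the design. The beta-cell marker median was 10.75 on both untreated hIAPP arrays, where Car15 was lowest, and 11.15 to 11.3 on the other 6. Of 14 beta-cell markers, 2 were lower with the transgene (3.19% of all genes), and the change of Ins2 was 0.0. The log2 of the summed beta-cell level was 15.23 and 15.31 on the untreated hIAPP arrays against 15.47 to 15.62. The stellate and fibroblast median was 9.45 and 9.25 there and 6.45 to 7.95 elsewhere, and 12 of 14 markers were higher with the transgene. Of all genes, 7.77% were. The log2 of the summed level of the list was 14.11 and 13.96 on the untreated hIAPP arrays against 12.2 to 13.0. The macrophage median was 8.6 and 8.3 there and 5.8 to 7.3 elsewhere, with 11 of 13 markers raised (7.77% of all genes). Between untreated and PBA-treated wild-type islets, where Car15 also differed, the beta-cell median was 11.2 and 11.15 against 11.15 and 11.25, the stellate median 6.9 and 6.45 against 7.0 and 6.7, and the macrophage median 6.1 and 6.3 against 5.9 and 5.8. The part of these cell types in the Car15 values was not tested. With the acinar median of each array as a covariate, the Car15 change was -1.83 for the transgene, 1.52 for PBA in hIAPP islets and -1.0 for PBA in wild-type islets.

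Among the protein-coding genes left after predicted genes were set aside, Atp4a was most like Car15 over the 8 arrays (Pearson's r = 0.969). Atp4a codes for the catalytic subunit of the gastric proton pump. Its values were 8.8 and 8.7 in untreated wild type, 8.1 and 8.0 in PBA-treated wild type, 7.2 and 7.7 in untreated hIAPP and 8.2 and 8.3 in PBA-treated hIAPP islets. Atp4a thus showed the same order of groups as Car15, which follows in large part from picking it by its likeness to Car15. Next were Elovl6, a fatty acid elongase gene (r = 0.965), the phosphodiesterase gene Pde10a (0.928), Fam163a (0.918) and Fam83g (0.918). These 5 have the highest r once predicted genes and RNA genes were set aside. The search ran over 2243 genes that spanned at least 1 log2 unit, counted before that step. The arrays share their groups, so the r values are a description over 8 arrays. The 5 genes were 0.95 to 1.30 lower with the transgene and 0.30 to 0.70 lower with PBA in wild-type islets (changes of -1.30 to -0.95 and -0.70 to -0.30). With PBA in hIAPP islets they were 0.60 to 1.35 higher. They were picked for their likeness to Car15 on these arrays, so the directions follow from the choice and are given as a description.

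**Figure D2:**
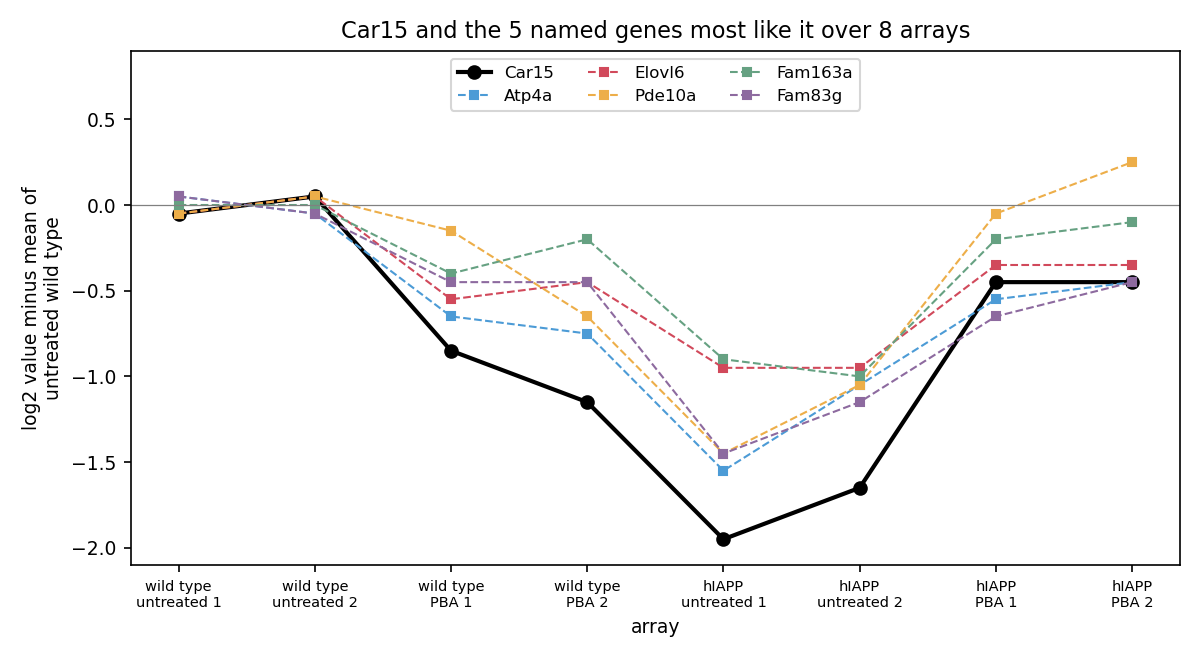
Log2 value minus the mean of the untreated wild-type arrays (vertical axis) for Car15 (black circles) and the 5 named genes with the highest correlation with it (coloured squares) on each of the 8 arrays (horizontal axis); lines only join the points of a gene. All 6 are lowest on the untreated hIAPP arrays, where Car15 reaches 7.1 and 7.4, and Atp4a, Elovl6 and Fam163a have the same order of the 4 group means as Car15. The 5 genes were picked for their likeness to Car15, so the shared course follows from the choice.

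Car4, the other lipid-anchored enzyme and a known product of capillary endothelium, differed between the 2 probe sets that report it. The main probe set read 6.2 and 6.8 in untreated wild type, 6.8 and 7.2 in PBA-treated wild type, 6.6 and 6.7 in untreated hIAPP and 6.2 and 6.1 in PBA-treated hIAPP islets. The other read 5.7 and 5.7, 5.6 and 5.5, 6.1 and 6.2, and 5.6 and 6.1 in the same order. By the main probe set the lowest group was PBA-treated hIAPP, and by the other it was PBA-treated wild type. The transgene change under PBA was -0.85 (SE 0.21) by the main probe set. Its adjusted p was 0.1981 in limma's fit of all genes and 0.2613 in limma's fit of all probe sets. By the other probe set, which is only in the latter fit, the change was 0.30 (SE 0.17, adjusted p = 0.5522). The sign of the change thus depended on the probe set. The sign of the PBA change in wild-type islets also differed, with 0.50 (SE 0.21) and -0.15 (SE 0.17). Both gave a lower Car4 with PBA in hIAPP islets, and neither passed. The main gave -0.50 (SE 0.21, adjusted p = 0.2170 over genes and 0.2677 over probe sets by limma). The other gave -0.30 (SE 0.17, adjusted p = 0.3974 over probe sets). The transgene change without PBA was 0.15 (SE 0.21) by the main and 0.45 (SE 0.17, adjusted p = 0.1795 over probe sets) by the other. Endothelial markers rose in 9 of 14 measured genes with the transgene (7.77% of all genes). Their median was 8.45 and 8.2 in untreated hIAPP against 7.35 and 7.25 in untreated wild type. They fell in 10 of 14 with PBA in hIAPP islets (6.32% of all genes), to a median of 7.05 and 7.25. Their part in the Car4 values was not tested.

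The cytosolic enzyme gene Car2 was read at 5.0 and 5.1 in untreated wild type, 5.2 and 5.1 in PBA-treated wild type, 6.1 and 6.2 in untreated hIAPP, and 4.6 and 5.7 in PBA-treated hIAPP islets. Both untreated hIAPP arrays were above all 6 others, and the PBA-treated hIAPP pair lay far apart. Against untreated wild type alone, 20.9% of all genes were higher without overlap, and the share above all 6 others was not counted. The transgene change was 1.10 (SE 0.31, adjusted p = 0.0636 by limma) and did not pass in the fit of all arrays. It passed in a fit of the 4 arrays compared (adjusted p = 0.0443) and with a prior variance that follows the level (0.0435). In all, it passed in 5 of 17 alternatives. Without PBA-treated hIAPP 1 or 2 it stayed at 1.10, and the spread of that pair no longer entered the fit. With PBA in hIAPP islets the change was -1.0 (SE 0.31, adjusted p = 0.0993). Leaving out the first PBA-treated hIAPP array gave -0.45, and leaving out the second gave -1.55. With the acinar median of each array as a covariate the change was -0.51 (SE 0.46, adjusted p = 0.7031 by limma). The acinar median was 9.2 and 10.4 on these 2 arrays. In wild-type islets PBA gave 0.10 (SE 0.31, 95% interval -0.62 to 0.82), and under PBA the genotypes had the same mean of 5.15.

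Some duct markers moved with Car2. The list's median was 7.2 to 7.45 in wild-type islets of either treatment, 8.35 and 8.3 in untreated hIAPP islets, and 7.3 and 8.0 in hIAPP islets with PBA, the array with the lower Car2 having the lower duct median. With the transgene 3 of 8 measured duct markers rose, Ambp, Bicc1 and the mucin gene Muc1, against 7.77% of all genes. Of the 8 markers, 7 were above background, all but Sox9. The log2 of the summed duct level was 11.94 and 11.98 in untreated wild type, 11.86 and 11.93 with PBA, 12.13 and 12.16 in untreated hIAPP and 11.95 and 12.08 in PBA-treated hIAPP islets. Krt19, a keratin gene of duct epithelium chosen after its values were seen, read 4.7, 5.7, 4.8, 5.3, 7.1, 7.3, 4.0 and 7.0 on the arrays in the order wild type, wild type with PBA, hIAPP and hIAPP with PBA. Its low and high values on the PBA-treated hIAPP arrays lie on the same sides as those of Car2, and its changes did not pass (2.0 with the transgene, adjusted p = 0.1980; -1.7 with PBA in hIAPP islets, adjusted p = 0.2834). Other duct markers did not share this pattern. The transgene changes of Krt7, Epcam and Sox9 were -0.05, -0.10 and -0.10 and did not pass, and Krt7 was at 10.7 and 10.6 on the PBA-treated hIAPP pair. Endothelial, stellate and macrophage medians were also highest on the untreated hIAPP arrays. On the PBA-treated hIAPP pair, the endothelial (7.05 and 7.25), stellate (7.7 and 7.95) and acinar medians (9.2 and 10.4) had the same order as Car2. The macrophage median (7.3 and 6.8) had the opposite order. Red blood cells are another source of Car2. Their list median was 3.5 to 3.85, and 4 of the 6 measured genes were below background. The haemoglobin gene Hba-a1 was at 11.5 to 12.8, fell with PBA in hIAPP islets (-0.75, SE 0.15, adjusted p = 0.0269) and had a transgene change of -0.05 that did not pass (adjusted p = 0.8661). The part of these cells in the Car2 values was not tested.

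**Figure D3:**
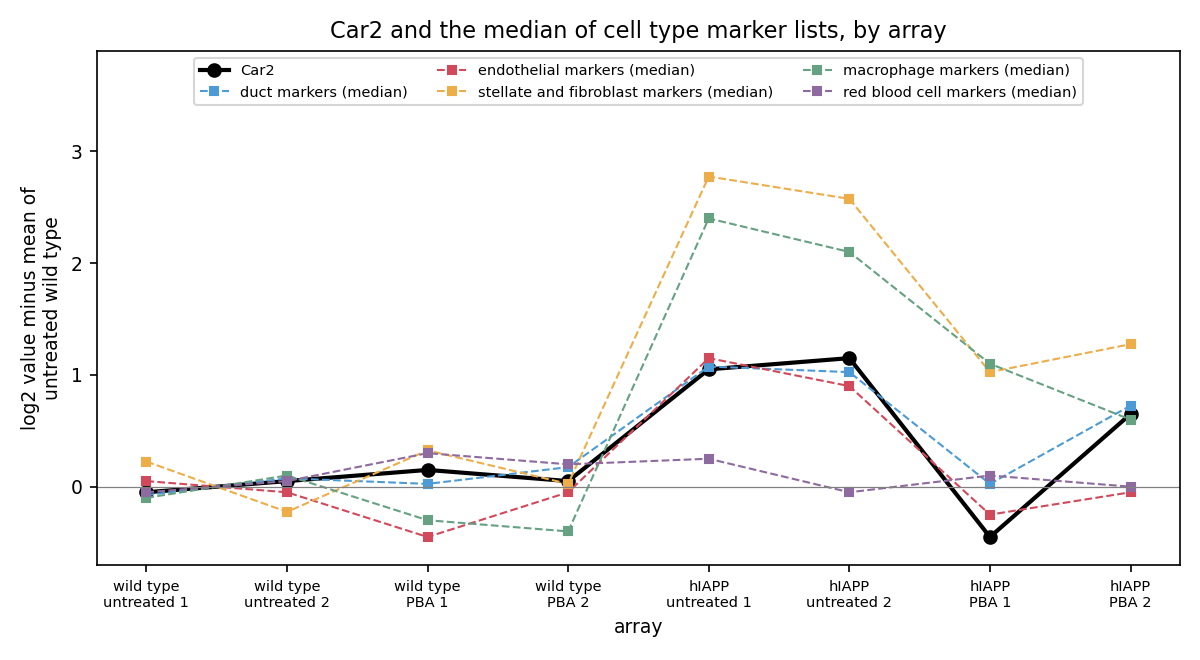
Log2 value minus the mean of the untreated wild-type arrays (vertical axis) for Car2 (black circles) and for the median of 5 cell type marker lists (coloured squares) on each of the 8 arrays (horizontal axis); lines only join the points of a series. Car2 (6.1 and 6.2) and the duct median (8.35 and 8.3) are highest on the untreated hIAPP arrays, as are the endothelial, stellate and macrophage medians. Car2 and the duct median are lower on PBA-treated hIAPP 1 (4.6 and 7.3) than on PBA-treated hIAPP 2 (5.7 and 8.0). The endothelial (7.05 and 7.25) and stellate medians (7.7 and 7.95) have the same order on this pair. The macrophage (7.3 and 6.8) and red blood cell medians (3.65 and 3.55) have the opposite order.

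Of the cytosolic genes, Car13 and Car3 were near background. Car13 read 4.5 and 3.8 in untreated wild type, 4.2 and 4.3 in untreated hIAPP, and 3.5 on all 4 PBA-treated arrays. PBA-treated and untreated arrays thus did not overlap in either genotype, and the whole range lies below the 95th percentile of the controls. Of all genes, 20.8% were lower with PBA without overlap in hIAPP islets and 14.9% in wild-type islets. The share that was lower in both genotypes was not counted. The change with PBA was -0.75 in hIAPP islets (SE 0.21, adjusted p = 0.0729 by limma) and -0.65 in wild-type islets (SE 0.21, adjusted p = 0.3281). With 1 or the other untreated wild-type array left out, the first stayed at -0.75, and the spread of that pair no longer entered the fit. With the acinar covariate it was -0.32 (SE 0.28, adjusted p = 0.6920 by limma). The other 2 Car13 probe sets gave changes of -0.20 and -0.20 in hIAPP islets and of -0.15 and 0.05 in wild-type islets. Car3, an enzyme of fat and muscle, ranged from 3.5 to 4.7, the untreated hIAPP arrays being at both ends, and none of its comparisons passed. Of 6 measured adipocyte markers, 4 were below background, among them the fat hormone gene Adipoq at 2.8 to 3.6. Fabp4, a fatty acid-binding protein gene that vessels and macrophages also express, was at 9.2 to 11.3, rose with the transgene (1.0, SE 0.13, adjusted p = 0.0035) and fell with PBA in hIAPP islets (-1.9, SE 0.13, adjusted p = 0.0011). The lipase gene Lipe was at 4.8 to 5.6. The part of fat cells in the Car3 values was not tested.

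Car10 was the steadiest of the members above background. This gene of a protein without enzyme activity, which binds neurexins at nerve cell contacts, read 8.7 and 8.7 in untreated wild type, 8.7 and 8.8 in PBA-treated wild type, 8.3 and 8.4 in untreated hIAPP and 8.4 and 8.5 in PBA-treated hIAPP islets. All 4 hIAPP arrays were below all 4 wild-type arrays. Of all genes, 25.2% were lower without overlap in hIAPP islets without PBA and 14.8% under PBA. The share with the full pattern was not counted. The transgene change was -0.35 without PBA (SE 0.10, adjusted p = 0.0695 by limma) and -0.30 under PBA (SE 0.10, adjusted p = 0.3087), and neither passed. The first passed when genes below background were left out (adjusted p = 0.0331), with a prior variance that follows the level (0.0244) and with arrays centred on their median (-0.55, adjusted p = 0.0119). PBA changed the signal by 0.05 in wild-type islets (95% interval -0.18 to 0.28) and by 0.10 in hIAPP islets (95% interval -0.13 to 0.33). The second Car10 probe set was at 3.1 to 3.6, below background.

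The remaining 2 genes of inactive forms were below background on every array. Car8, whose product binds the inositol trisphosphate receptor, ranged from 3.4 to 4.6, and Car11, a neurexin-binding protein, from 3.4 to 4.4. Both had their highest array among the untreated hIAPP arrays. Their transgene changes were 0.50 each (SE 0.25 and 0.23, adjusted p = 0.2734 and 0.2236 by limma), and their changes with PBA in hIAPP islets were -0.65 and -0.60 (adjusted p = 0.1756 and 0.1678). With 1 array left out, the transgene change ranged from 0.1 to 0.9 for Car8, the ends being without untreated hIAPP 1 and 2, and from 0.15 to 0.85 for Car11, the ends being without untreated wild type 2 and 1. The second Car8 probe set gave 0.0 with the transgene and -0.1 with PBA in hIAPP islets. The membrane-spanning enzymes were also below background, with Car12 at 3.1 to 3.6 and Car14 at 3.4 to 4.3. No comparison of either passed.

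**Figure D4:**
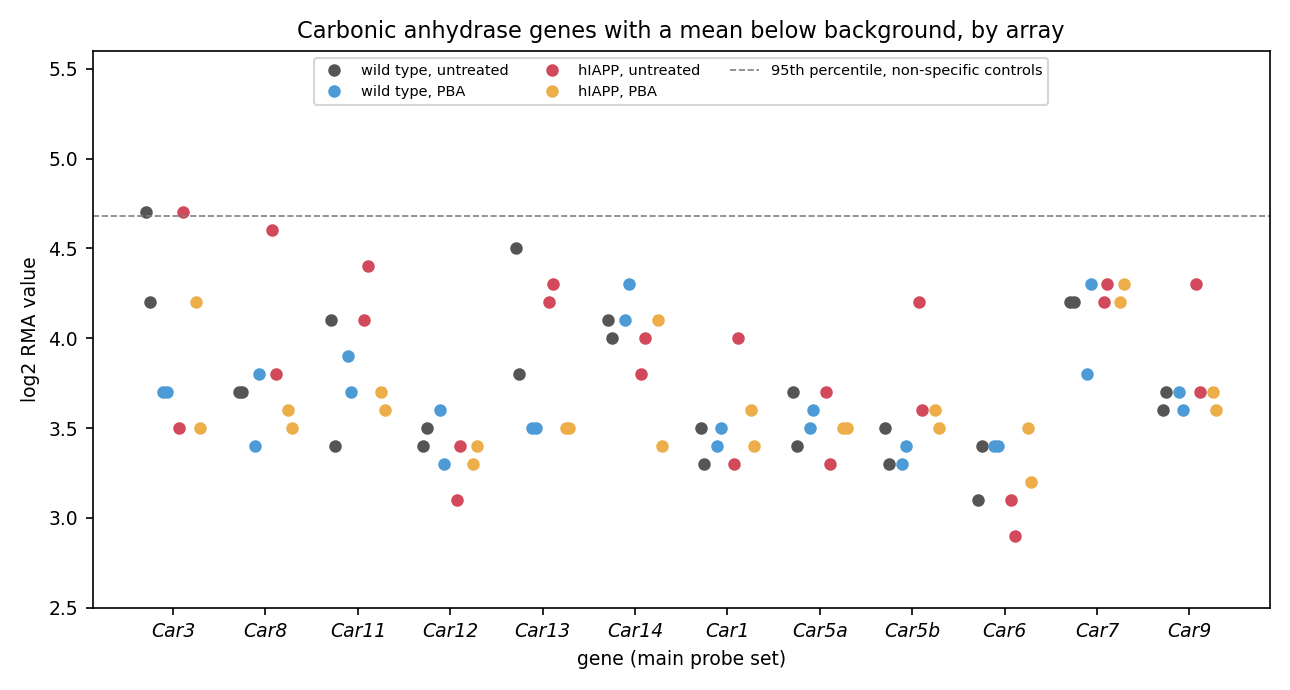
Log2 RMA values (vertical axis) of the 6 members and 6 other carbonic anhydrase genes (horizontal axis) whose mean lies under the dashed background line at 4.68, with 1 point per array coloured by group. Only Car3 reaches 4.7, on 2 arrays, and Car13 is at 3.5 on all 4 PBA-treated arrays.

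The rest of the family added no gene above background. Car1 (3.3 to 4.0), an enzyme of red blood cells, the mitochondrial Car5a (3.3 to 3.7) and Car5b (3.3 to 4.2), the secreted Car6 (2.9 to 3.5), the cytosolic Car7 (3.8 to 4.3) and the hypoxia-inducible Car9 (3.6 to 4.3) were below 4.68 on all 8 arrays. None of the 6 passed in any of the 5 comparisons by limma. The largest change among them was in Car5b with the transgene (0.50, SE 0.19, adjusted p = 0.1563).

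Over the 10 genes, the counts past the threshold were close to 0 in every comparison. With the transgene 1 of 10 passed, Car15, against 11.0% of all genes (7.77% higher and 3.19% lower). With PBA in hIAPP islets 1 of 10 passed, again Car15, against 8.09% (1.78% higher and 6.32% lower). With PBA in wild-type islets 0 of 10 passed (0.292% of all genes; 1800 genes had an unadjusted p below 0.05), and for the transgene under PBA 0 of 10 (0.421%, of which 0.322% higher; 2072 genes unadjusted). For the difference between the PBA changes 1 of 10 passed in the fit of all genes, again Car15, against 1.96% (0.269% higher and 1.69% lower), and 0 of 10 with any 1 array left out. Nothing is read from the counts that hold Car15 with the transgene, with PBA in hIAPP islets and for the difference, since Car15 was chosen on the first and second, and the difference contains the second. The median change of the 10 was -0.02 with the transgene (all genes -0.05), -0.37 with PBA in hIAPP islets (0.00), 0.03 with PBA in wild-type islets (0.00) and -0.07 for the transgene under PBA (0.00). These medians rest mostly on genes below background. Arrays did not overlap for 4 of the 10 with the transgene (46.0% of all genes), Car2 and Car8 being higher (20.9%) and Car10 and Car15 lower (25.2%). With PBA in hIAPP islets they did not overlap for 6 (43.5%), Car2, Car4, Car8, Car11 and Car13 being lower (20.8%) and Car15 higher (22.6%). They did not overlap for 3 with PBA in wild-type islets (28.5%), Car3, Car13 and Car15, all lower (14.9%), and for 3 with the transgene under PBA (30.4%), Car4 and Car10 being lower (14.8%) and Car15 higher (15.6%).

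**Figure D5:**
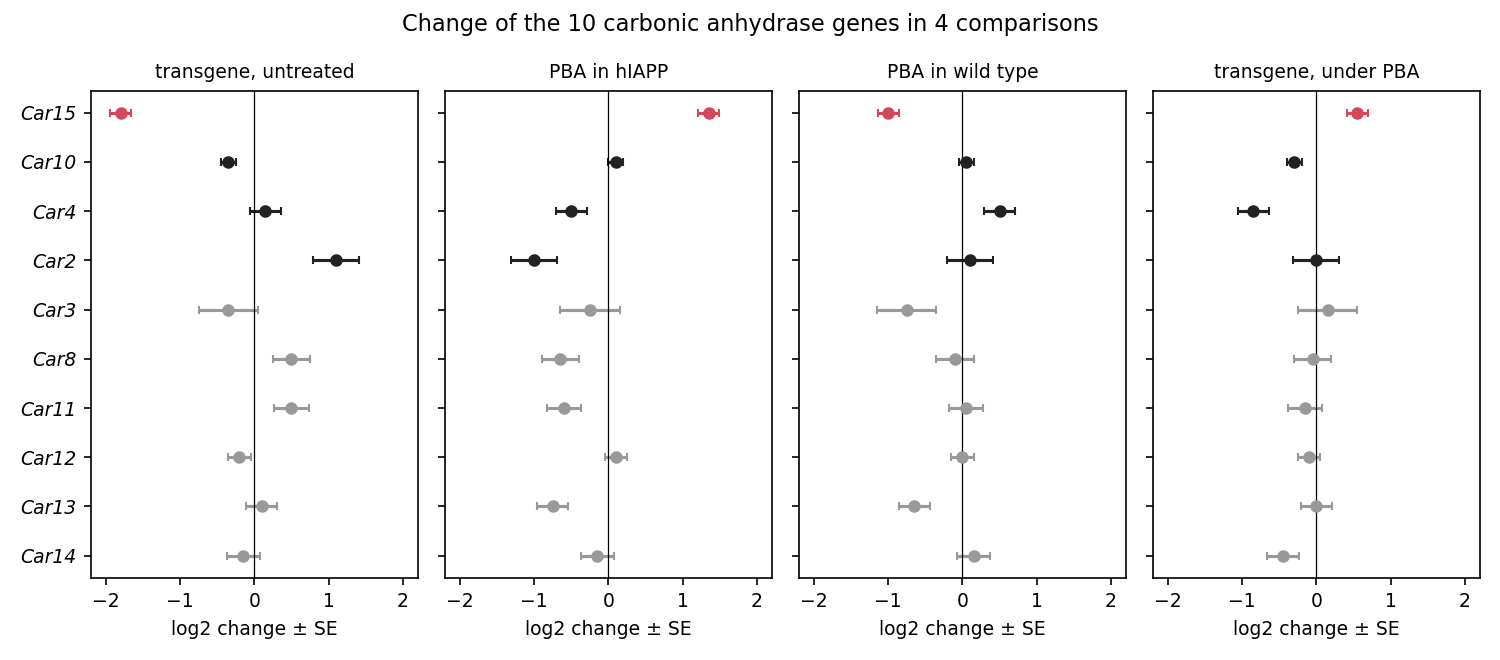
Log2 change with its SE (horizontal axes) of the 10 carbonic anhydrase genes (vertical axis) in 4 comparisons, with Car15 in red, the other members above background in black and members below background in grey. Car15 lies at -1.80, 1.35, -1.0 and 0.55, and Car2 at 1.10, -1.0, 0.10 and 0.00.

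Bicarbonate, proton and lactate transporters handle the products of the reaction. Of 16 measured genes, 1 rose and 1 fell with the transgene (7.77% and 3.19% of all genes), 0 rose and 1 fell with PBA in hIAPP islets (1.78% and 6.32%), and their median change with the transgene was -0.05, as for all genes. Slc16a1, the monocarboxylate transporter gene normally kept low in beta cells, was at 5.0 and 5.1 in untreated wild type, 5.9 and 6.3 in untreated hIAPP and 4.9 and 5.0 in PBA-treated hIAPP islets. It rose with the transgene (1.05, SE 0.19, adjusted p = 0.0146 by limma) and fell with PBA in hIAPP islets (-1.15, SE 0.19, adjusted p = 0.0134). Endothelial, stellate and macrophage medians moved the same way, and the part of any cell type in the Slc16a1 values was not tested. Slc4a11 fell with the transgene (-0.45, SE 0.11, adjusted p = 0.0412) at levels of 3.5 to 4.1, below background. The anion exchanger gene Slc4a2 had changes of 0.25 and -0.40 in these comparisons (adjusted p = 0.2083 and 0.0729), and neither passed.

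Of the 4 measured partners and relatives of the inactive forms, Ptprg was the only 1 that passed. It codes for a receptor phosphatase with a carbonic anhydrase-like outer domain, and it read 7.2 and 7.2 in untreated wild type, 7.3 and 7.1 in PBA-treated wild type, 8.3 and 8.3 in untreated hIAPP and 7.1 and 7.6 in PBA-treated hIAPP islets. It rose with the transgene (1.10, SE 0.17, adjusted p = 0.0065 by limma) and fell with PBA in hIAPP islets (-0.95, SE 0.17, adjusted p = 0.0157). Ptprz1 had a transgene change of 0.50 (adjusted p = 0.0775). The neurexin genes Nrxn2 and Nrxn3, binding partners of the Car10 and Car11 proteins, were below background by their means (4.15 and 3.21). The part of the connective tissue and vessel markers, which moved the same way as Ptprg, was not tested.

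Hypoxia-inducible genes, the set to which Car9 and Car12 belong in other tissues, were split. Of 12 measured, 4 rose with the transgene, Ldha (1.35), Adm (1.05), Ddit4 (0.90) and Hk2 (0.55), and 1 fell, Ankrd37 (-0.80), where 7.77% of all genes rose and 3.19% fell. With PBA in hIAPP islets 3 fell, Ldha (-1.30), Adm (-1.15) and Ddit4 (-0.75), and Ankrd37 rose (1.00), where 6.32% of all genes fell and 1.78% rose. The median change was 0.18 with the transgene and -0.28 with PBA, against -0.05 and 0.00 over all genes. Car9 and Car12 stayed below background in all groups, with transgene changes of 0.35 (SE 0.19) and -0.20 (SE 0.15) that did not pass.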

How the data were processed

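Total RNA of islets was hybridised to 8 Affymetrix arrays. The deposited table holds log2 values made by the authors with RMA (affy package, version not given in the sources used here), per the submitters' processing notes, rounded to 1 decimal and used as deposited. Of 45037 non-control probe sets, 28898 name 1 gene symbol, 551 several and 15588 none; 28689 probe sets were matched to RefSeq by gene identifier and took its symbol. For 7180 genes with several probe sets, the one with the highest mean stood for the gene, which gave 17097 genes.

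Group means were fitted together on the 8 arrays with limma 3.58.1 (R 4.3.3), which left 4 residual degrees of freedom and added 3.27 prior ones. Tests were two-sided, with Benjamini-Hochberg adjustment over all genes and a threshold of 0.05. For the second Car4 probe set the adjustment was over all probe sets. Intervals are 95%. The fit was tested on simulated data. Array number and background limit the precision. Members, gene lists and tests were chosen with earlier results of these data known. The text names the members, the other carbonic anhydrases, up to 4 genes of each list (smallest p for pathways, highest mean for cell types) and the 5 genes most like Car15; Hk2, like Muc1, Bicc1, Sox9 and Krt19, is named beyond this because of its count or values. The alternatives are given in the closing section.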

Additional observations from a re-analysis of the deposited data

Results flagged for a closer look

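The PBA change of Car15 went opposite ways in the genotypes. Both treated arrays were above both untreated arrays in hIAPP islets and below them in wild-type islets. Of 17097 genes, 465 (2.72%) had this pattern, and 872 (5.10%) had opposite PBA changes without overlap, whichever genotype was higher. For Car15, the change in hIAPP minus that in wild-type islets was 2.35 on the log2 scale (SE 0.20). It ranged from 2.2 to 2.5 when each array was left out in turn. The difference was not tested on values independent of the choice of Car15, which rested on its change in hIAPP islets, and its place past the threshold in the fit of all genes is not used as a test.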

How the results depend on the processing

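The 10 members kept their sign wherever a change passed. With the transgene, 2 members in place of 1 passed in the fit of the 4 arrays compared, without the 2 arrays that stood apart (wild type 1 with PBA for its controls, hIAPP 1 with PBA for its acinar level), with the filter on low values and with centred arrays, 3 passed with a trended prior variance, and 1 to 2 when 1 array was left out. With PBA in hIAPP islets, 0 passed in the fit of the 4 arrays compared, without both arrays and with the acinar covariate, and 0 to 2 with 1 array left out (0 without untreated hIAPP 1). With PBA in wild-type islets, 1 passed with the filter, with averaged probe sets and with the trended prior, and 0 with 1 array left out. The difference of the PBA changes had 0 without both arrays, with the acinar covariate and with any 1 array left out. For the transgene under PBA 0 passed in every fit listed here. With 1 array left out, the lone array of its group is assumed to vary like the other groups.

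Counts over all genes moved more. With the transgene 1874 genes passed, against 484 in the fit of the 4 arrays or without both arrays, 2820 over all probe sets, 4347 with centred arrays and 568 to 1579 with 1 array left out. With PBA in hIAPP islets 1384 passed, against 14 in the fit of the 4 arrays, 0 (3361 at an unadjusted p below 0.05 by limma) without both arrays, 71 with the acinar covariate, 3499 centred and 166 to 968 with 1 left out. With PBA in wild-type islets 50 passed, against 0 (1802 unadjusted) in the fit of the 4 arrays, 0 (1649) without both arrays, 87 with the filter, 118 with the trended prior and 0 to 2 (1212 to 2881) with 1 array left out. For the transgene under PBA 72 passed, against 0 (1902 unadjusted) in the fit of the 4 arrays, 1 without both arrays, 4 with the covariate, 129 with the trended prior and 5 to 13. The difference of the PBA changes gave 335, against 0 (2555 unadjusted) without both arrays, 0 (1754) with the covariate, 576 with the trended prior and 0 to 3 (2252 to 3252) with 1 array left out. Centring turned the share of higher calls from 70.9% to 24.9% with the transgene, from 22% to 74.6% with PBA in hIAPP islets and from 13.7% to 44.6% for the difference. The cause of these moves was not tested, beyond the smaller number of arrays or genes in a fit.

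With the replicate number as a block, 1486, 1027, 5, 15 and 118 genes passed in these 5 comparisons, and the counts of members were 1, 1, 0, 0 and 1. Where these counts hold Car15 in a comparison it was chosen on, or in the difference, they support nothing. Differences between replicates 1 and 2 correlated between groups at -0.140 to 0.098. No pairing by replicate number was thus seen over all genes, which does not settle how the arrays were handled.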
